A study of Mus musculus with 15 samples.

Results

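A set of 9 antimicrobial and Paneth cell genes was followed in 15 RNA-seq libraries of adult mouse ileum, the most distal segment of the small bowel. They are the lectins Reg3b (ENSMUSG00000071356), Reg3g (ENSMUSG00000030017) and Reg3a (ENSMUSG00000079516), the Paneth cell products Lyz1 (ENSMUSG00000069515), Ang4 (ENSMUSG00000060615), Mmp7 (ENSMUSG00000018623), Itln1 (ENSMUSG00000038209) and Mptx2 (ENSMUSG00000079180), and the inducible nitric oxide synthase Nos2 (ENSMUSG00000020826). The genes were chosen by name, and 9 of 9 were found among the 37620 gene identifiers counted in every library. The study asked which genes depend on Rfx6, a transcription factor of hormone-producing intestinal cells. Libraries labelled mutant came from Rfx6f/f mice with Vilin-CreERT2, a tamoxifen-activated Cre recombinase under the villin promoter and thus made in gut epithelial cells. Control mice had no Cre. All mice, controls included, received 10 mg doses of tamoxifen by gavage over 5 days, and ileum was taken 8 days or 3 months later. At 8 days there were 3 controls, all Rfx6f/f, and 4 libraries labelled mutant. At 3 months there were 4 controls, 2 of them Rfx6f/f (controls 1 and 4) and 2 Rfx6f/+ (controls 2 and 3), and 4 libraries labelled mutant. The age and strain of the mice are not given beyond "adult", and replicate numbers follow the order of deposit.

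Reg3 proteins are secreted C-type lectins that bind bacterial surfaces. Enterocytes and Paneth cells make them, and the cytokine IL-22, acting through STAT3, and contact with bacteria are known to induce them. Paneth cells sit at the base of the small intestinal crypt and secrete lysozyme, alpha-defensins, angiogenin-4 and other antimicrobial proteins, and their maturation depends on Wnt signalling. Nos2 makes nitric oxide and is a known target of interferon-gamma in macrophages and epithelium.

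The genes Reg3b, Reg3g and Reg3a lie on mouse chromosome 6, and the promoter sequences of these 3 paralogs are shown because Reg3b and Reg3g varied together from library to library. The windows end 15 bases after the start for Reg3b and Reg3g and 50 bases after it for Reg3a. The sequences are from RefSeq on GRCm38.p6, 150 bases each, 5′ to 3′ on the strand of the gene, at chr6:78370750-78370899 (plus strand) for Reg3b, chr6:78468860-78469009 (minus strand) for Reg3g and chr6:78380609-78380758 (plus strand) for Reg3a. Capitals mark matches on either strand to TTCNNNGAA, the palindrome bound by STAT factors, to CTTTGAT, a TCF/LEF core, and to TATAAA, the TATA box.
Reg3b: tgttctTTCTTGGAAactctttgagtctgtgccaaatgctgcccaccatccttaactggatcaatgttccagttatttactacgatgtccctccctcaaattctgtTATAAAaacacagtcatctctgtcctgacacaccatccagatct
Reg3g: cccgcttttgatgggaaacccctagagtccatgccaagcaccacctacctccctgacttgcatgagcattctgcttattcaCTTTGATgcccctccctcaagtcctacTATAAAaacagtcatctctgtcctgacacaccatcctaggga
Reg3a: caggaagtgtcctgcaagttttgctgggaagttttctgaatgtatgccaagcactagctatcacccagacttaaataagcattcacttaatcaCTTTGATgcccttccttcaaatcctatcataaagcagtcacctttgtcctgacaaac
Over 300 bases around the start, the promoters of Reg3b and Reg3g were 68.1% identical, Reg3g and Reg3a 52.4% and Reg3b and Reg3a 47.5%, while the other 25 pairs of member promoters lay between 42.5 and 48.8%. Gaps count as differences in these values. The CTTTGAT match stands 54 bases before the start in Reg3g and 7 before it in Reg3a, so the 300-base window of Reg3a is offset and its values are lowered. Over the 150 bases printed, Reg3b and Reg3g were 68.4% identical, Reg3g and Reg3a 65.03% and Reg3b and Reg3a 55.8%, and the other pairs were not aligned over these shorter windows. A TTCNNNGAA match stood in the Reg3b window, 129 bases before the start, and in the Ang4 window, 192 bases before it, and 8.30% of 32851 promoter windows of the same length held one. A CTTTGAT match was found for Reg3g, Reg3a and Mmp7, against 3.73% of all windows, and TATAAA for Reg3b, Reg3g and Mmp7, against 13.6%. Matches are descriptions of the sequence only. RefSeq windows were found for 8 of the 9 genes and none was found for Nos2.

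Levels differed widely between the genes. In the 8-day controls, the mean level in counts per 1000000 counts of the library per kilobase of transcript (CPM per kb) was 6452 for Reg3b, 4056 for Lyz1, 3431 for Reg3g, 1308 for Itln1, 394 for Ang4, 143 for Mptx2, 122 for Mmp7, 77.4 for Reg3a and 34.4 for Nos2. Lyz1 and Reg3g overlapped in that order (3719 to 4535 and 2590 to 4716 CPM per kb), and the other neighbours did not. In the 3-month controls the order changed to Reg3b at 18837 CPM per kb, Reg3g at 11471, Lyz1 at 3990, Itln1 at 1428, Mptx2 at 981, Ang4 at 462, Mmp7 at 217, Nos2 at 100.3 and Reg3a at 64.0. There Reg3b overlapped Reg3g, and Nos2 overlapped Reg3a. As a share of all counts the 9 genes together made up 1.29 to 1.67% of the 8-day control libraries and 1.94 to 3.84% of the 3-month controls. Reg3b was among the 3 most counted genes in each 3-month control and ranked 8 to 13 in the 8-day controls.

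**Figure D1:**
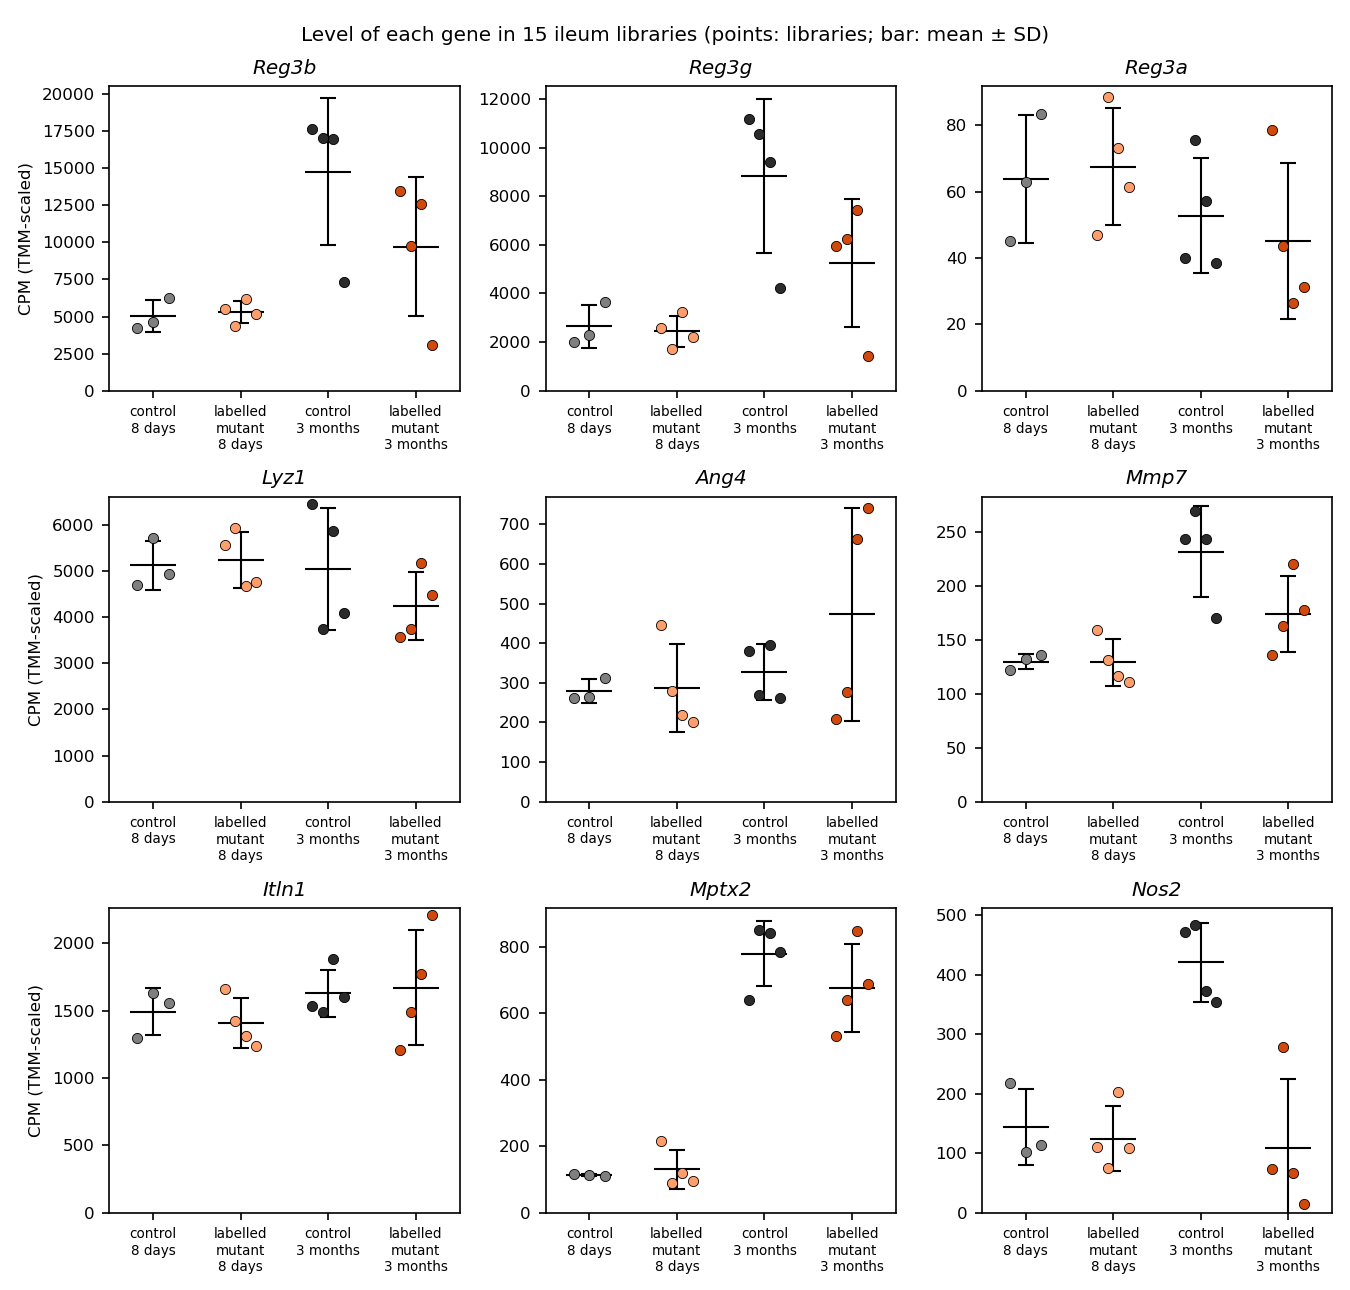
Level of each of the 9 genes (vertical axis, CPM, counts per 1000000 after TMM scaling) in each library, by group (horizontal axis); points are libraries, the long bar is the mean and the whiskers are SD, cut at 0. Reg3b, Reg3g, Mptx2, Mmp7 and Nos2 stand higher in the 3-month controls than in the 8-day controls, and the 4 libraries labelled mutant at 3 months lie below all 3-month controls for Nos2 alone.

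At 8 days none of the 9 genes passed the test between the labels. The edgeR test called 0 of 9, against 16 of 17493 genes tested (0.0915%), 0 of 9 passed an unadjusted p of 0.05 (8.8% of all genes), DESeq2 and limma-voom also called 0 (1.02% and 0.0915% of all genes), and 0 of 9 had groups that did not overlap (7.68% of all genes). Reg3b stood at 4238, 4654 and 6264 CPM in the controls and 5530, 4341, 6151 and 5177 CPM in the libraries labelled mutant, a log2 fold change of 0.07 (95% interval -0.29 to 0.43, adjusted p = 0.969). Reg3g stood at 1997, 2303 and 3636 CPM in controls and 2586, 1712, 3227 and 2229 CPM in the libraries labelled mutant, and the ranges overlap throughout. Its log2 fold change was -0.12 (interval -0.68 to 0.44, adjusted p = 0.961). Lyz1, the Paneth cell lysozyme that cleaves bacterial cell walls, gave the narrowest interval of the 9: it was at 4697, 5727 and 4945 CPM in controls and at 5558, 5933, 4682 and 4771 CPM in the libraries labelled mutant, with a log2 fold change of 0.03 (interval -0.24 to 0.29). The widest was that of Nos2, at 217, 101 and 114 CPM in controls and 110, 75.1, 202 and 109 CPM in the libraries labelled mutant (log2 fold change -0.22, interval -1.02 to 0.58). The other 5 genes had log2 fold changes from -0.09 to 0.20 and adjusted p from 0.933 to 0.992. The median over the 9 was 0.03, beside -0.002 over all genes tested.

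At 3 months none of the 9 genes passed the edgeR test either, although 1586 of 17085 genes did (9.28%). The unadjusted p was under 0.05 for 2 of 9 genes, Nos2 and Mmp7, beside 29.4% of all genes. The median log2 fold change of the 9 was -0.23, beside 0.008 for all genes, with 7 negative and 2 positive values. Between the control genotypes at 3 months, Rfx6f/f over Rfx6f/+, the median of the 9 was also -0.23, with 8 negative values and 1 positive. The median thus differed between the 2 kinds of control as much as between the labels. limma-voom called 0 of 9 (9.49% of all genes) and DESeq2 called 1, Nos2 (17.5% of all genes).

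Nos2 had the largest difference between the labels at 3 months. It was at 472, 483, 373 and 354 CPM in the controls and at 73.9, 277, 66.2 and 14.8 CPM in the libraries labelled mutant. The groups do not overlap, as for 19.4% of all genes, or 10.6% counting those lower under the mutant label, and the libraries labelled mutant spread 18.8-fold among themselves while the controls spread 1.37-fold. Means were 420 ± 66.5 CPM (SD, n = 4) and 108 ± 116 CPM (SD, n = 4). This gave a fitted difference of -1.94 ± 0.69 on the log2 scale (SE; interval -3.50 to -0.38, adjusted p = 0.104 by edgeR's quasi-likelihood test). The call turned on the test and on 1 library. DESeq2 gave the same change with adjusted p = 0.0434, a fit of all 15 libraries gave -1.96 with adjusted p = 0.0473 (2271 of 17959 genes called), and leaving out mutant 2, the highest of its group, gave -3.01 with adjusted p = 0.0130 (1438 of 17263 genes called). Over all alternatives adjusted p ran from 0.0130 to 0.350, and the log2 fold change was negative in each.

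The Reg3 lectins stood lower on average in the libraries labelled mutant at 3 months, within the spread of the animals. Reg3b was at 17646, 17062, 16959 and 7332 CPM in the controls and 13480, 9722, 12583 and 3069 CPM in the libraries labelled mutant. Control 4 was far below the other controls, and mutant 4 far below the others of its label. The log2 fold change was -0.59 ± 0.44 (SE; interval -1.58 to 0.41, adjusted p = 0.402). Reg3g was at 11174, 10580, 9389 and 4231 CPM in controls and 5946, 6250, 7446 and 1445 CPM in the libraries labelled mutant, with the same 2 libraries lowest. Its log2 fold change was -0.73 ± 0.47 (SE; interval -1.79 to 0.34, adjusted p = 0.332). Both intervals are wide, and they hold 0 as well as a fall of over 1.5 on the log2 scale.

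Control 4 and mutant 4 also had the highest sums of 6 exocrine pancreas genes, 1176 and 356 CPM, beside 41.3 to 194 CPM in the other controls and 25.95 to 137 CPM in the other libraries labelled mutant. With both left out, an alternative chosen after seeing the data, 1093 of 17199 genes were called. Reg3g passed the test at a log2 fold change of -0.65 (adjusted p = 0.0405) and Reg3b stood at -0.52 (adjusted p = 0.0715). The 2 libraries are also the lowest in Reg3b and Reg3g of their groups. The part of pancreatic RNA in these values was not tested. Reg3a was far less abundant, with mutant 1 the highest library, at 39.9, 75.7, 57.1 and 38.5 CPM in controls and 78.5, 43.8, 26.4 and 31.4 CPM in the libraries labelled mutant (log2 fold change -0.22, interval -0.998 to 0.57).

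**Figure D2:**
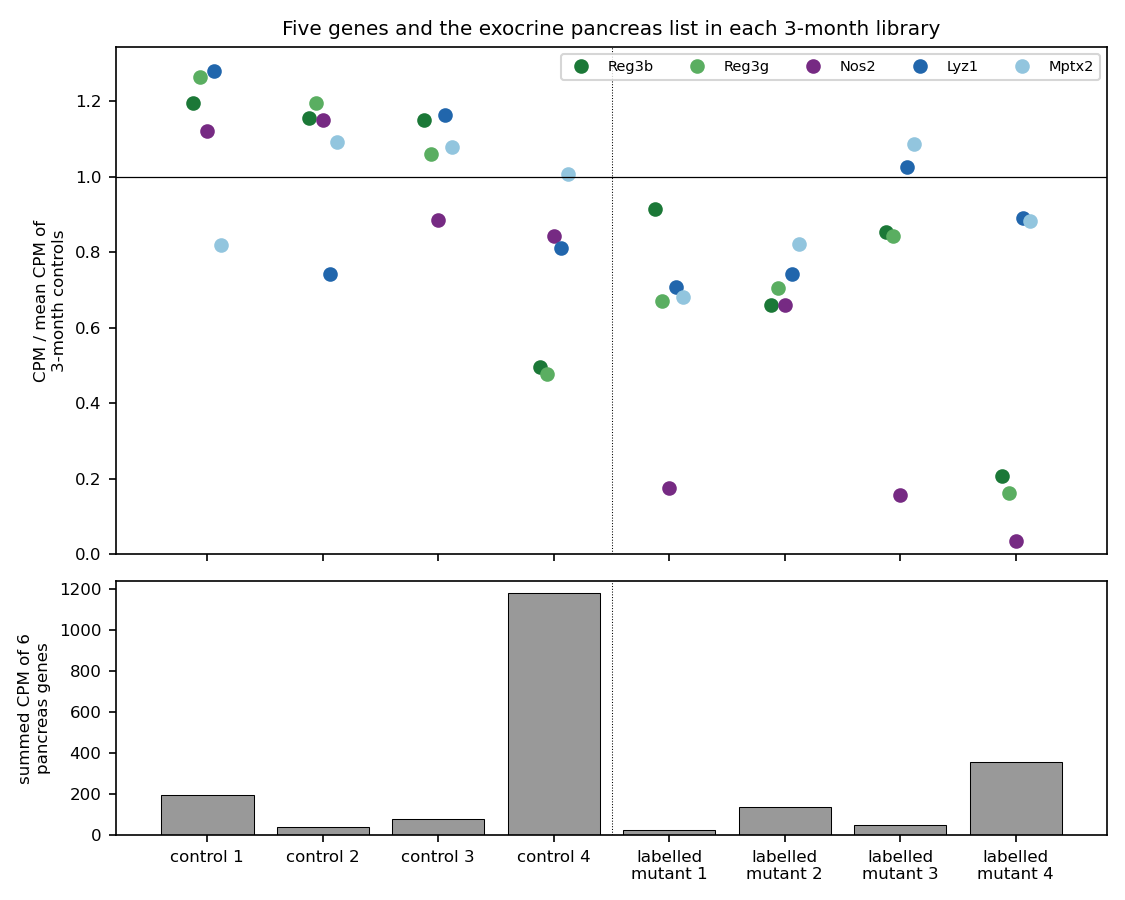
Top, CPM of 5 genes in each 3-month library divided by the mean of the 3-month controls (vertical axis, ratio; line at 1); bottom, summed CPM of 6 exocrine pancreas genes. Control 4 and mutant 4 have the lowest Reg3b and Reg3g of their groups and the tallest pancreas bars, and Nos2 is lowest in mutant 4.

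Among the Paneth cell products at 3 months, Mmp7 came closest to the threshold. Mmp7 is the metalloprotease that cuts pro-defensins to their active form. It was at 243, 269, 243 and 170.5 CPM in controls and 135.5, 163, 220 and 177 CPM in the libraries labelled mutant. Only control 4 among the controls fell inside the range of the other label. The log2 fold change was -0.40 ± 0.17 (SE; interval -0.78 to -0.01, adjusted p = 0.158). An antisense gene, AV064505, overlaps 123 bases of Mmp7 exons, and as the strand setting of the counting is not given in the sources used here, reads of both cannot be told apart.

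Lyz1 was at 6458, 3738, 5868 and 4093 CPM in controls and 3569, 3744, 5169 and 4485 CPM in the libraries labelled mutant, with a log2 fold change of -0.23 (interval -0.70 to 0.23). The 2 highest controls, 1 and 3, were also the only 3-month libraries with Defa21, an alpha-defensin gene, above 1 CPM (433 and 511 CPM). Every 8-day library held Defa21 at 345 to 533 CPM. Without controls 1 and 3, again an alternative chosen after seeing the data, Lyz1 was 0.13 on the log2 scale, the opposite sign. What separates these animals is not given in the labels and was not tested.

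Ang4, a ribonuclease with antibacterial activity, had the largest positive value of the 9 at 3 months, without passing the test. It was at 381, 270, 396 and 262 CPM in controls and 209, 277, 663 and 740 CPM in the libraries labelled mutant. Mutants 3 and 4 were above every control and mutant 1 below every control, so the label had a wide interval (log2 fold change 0.54, -0.33 to 1.42, adjusted p = 0.374). With single libraries left out, the Ang4 value ran from 0.25 to 0.79. Itln1, an intelectin that binds microbial sugars, was at 1536, 1494, 1885 and 1601 CPM in controls and 1208, 1493, 1770 and 2212 CPM in the libraries labelled mutant (log2 fold change 0.05, -0.34 to 0.45). Mptx2, a pentraxin of Paneth cells, was at 639, 851, 841 and 785 CPM in controls and 531, 639, 847 and 688 CPM in the libraries labelled mutant (log2 fold change -0.19, -0.52 to 0.15). In whole tissue, fewer Paneth cells and less RNA per Paneth cell cannot be told apart. Reads shared between Mptx2 and Mptx1, Lyz1 and Lyz2, or Ang4 and other angiogenin genes may have been split in the counting. In the same libraries the Lyz1 to Lyz2 ratio of counts ran from 16.8 to 35.7 at 3 months and from 29.6 to 65.3 at 8 days.

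**Figure D3:**
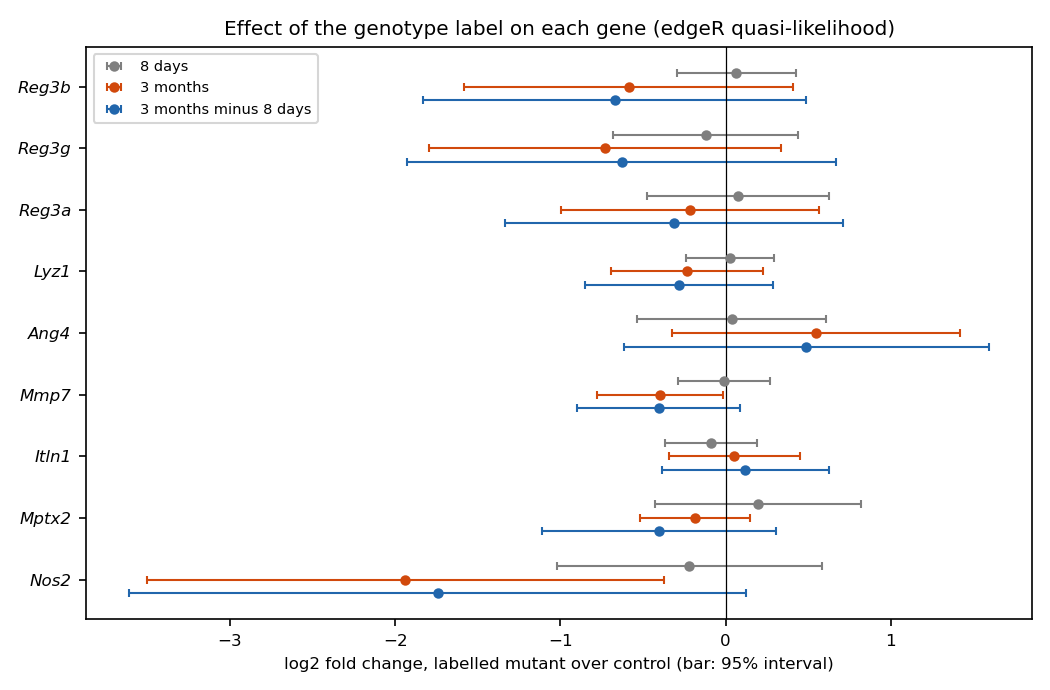
Log2 fold change of libraries labelled mutant over control (horizontal axis) for each gene (vertical axis) at 8 days, at 3 months and as the difference of both, with 95% intervals from edgeR. The 8-day values lie between -0.22 and 0.20, and at 3 months only the intervals of Mmp7 and Nos2 leave out 0, before adjustment for the number of genes.

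A change in the label effect from 8 days to 3 months was tested as an interaction over 15 libraries. It was called for 0 of 9 genes, against 141 of 17959 (0.785%), with 0 of 9 under an unadjusted p of 0.05 (16.6% of all genes), and 0 by DESeq2 (5.66%) and by limma-voom (0.228%). Nos2 had the largest difference, -1.74 ± 0.87 on the log2 scale (SE; interval -3.61 to 0.13, adjusted p = 0.338). Without mutant 2 of 3 months it was -2.81 and passed (adjusted p = 0.0486, with 345 of 17903 genes called). The other 8 genes had differences from -0.67 (Reg3b) to 0.49 (Ang4), with adjusted p from 0.406 to 0.857.

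The controls themselves differed between the cohorts, and time after tamoxifen and the animals cannot be told apart here, so these values carry no test. Mptx2 was at 111 to 116 CPM in the 8-day controls and 639 to 851 CPM in the 3-month controls, a ratio of means of 6.86. The libraries labelled mutant showed a ratio of 5.19 for this gene. Reg3g was 3.34-fold, Reg3b 2.92-fold, Nos2 2.91-fold and Mmp7 1.78-fold higher in the 3-month controls, and the control groups did not overlap for these 5 genes of 9, where 25.1% of all genes were higher at 3 months without overlap and 49.5% did not overlap in either direction. Cell type and region markers moved between the same controls, from 8 days to 3 months: the summed jejunum markers from a mean of 707 to 45.7 CPM, goblet cell markers from 27015 to 14398 CPM, T cell markers from 47.4 to 112 CPM and B cell markers from 28.8 to 135.2 CPM. Their part in the values of the 5 genes was not tested. The 8-day controls were all Rfx6f/f. As the control groups did not overlap for these 5 genes, the Rfx6f/f controls of 3 months, 1 and 4, lay above every 8-day control too. This follows from the groups not overlapping and is no separate check of genotype. Reg3a, Lyz1, Ang4 and Itln1 overlapped, with ratios from 0.83 to 1.17. Between the libraries labelled mutant the ratios were 2.16 for Reg3g, 1.83 for Reg3b, 1.35 for Mmp7 and 0.87 for Nos2. For Nos2, 3 of the 4 libraries labelled mutant at 3 months (14.8 to 73.9 CPM) lay below the lowest 8-day library (75.1 CPM), and mutant 2 (277 CPM) lay above the highest (217 CPM).

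The 3-month controls of both genotypes were compared in the same way. None of the 9 genes differed between 2 Rfx6f/f and 2 Rfx6f/+ controls by edgeR, where 0 of 17780 genes did (0%), 0 of 9 had an unadjusted p under 0.05 (6.86% of all genes), and DESeq2 called 0 of 9 (0.27% of all genes). With 2 animals a group the intervals were wide: Reg3b stood at -0.43 (-1.90 to 1.03), Reg3g at -0.36 (-1.94 to 1.22) and Nos2 at -0.04 (-2.33 to 2.26) on the log2 scale, Rfx6f/f over Rfx6f/+. The Rfx6f/f pair holds control 4, the lowest control in Reg3b and Reg3g and the highest in pancreas genes. In this contrast 6 of 6 exocrine pancreas genes were positive, each with an unadjusted p under 0.05 (median 3.70). The part of control 4 in these values was not tested. With the Rfx6f/f controls alone against the libraries labelled mutant, Nos2 was -1.92 (adjusted p = 0.325) and Reg3g -0.54 (adjusted p = 0.682).

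Reg3b and Reg3g rose and fell together from animal to animal. With group means removed, their log2 CPM correlated at r = 0.97 (Spearman rho 0.86, n = 15, permutation p = 0.00068 within groups, adjusted p = 0.0122 over 36 pairs), and the ratio of Reg3b to Reg3g counts stayed between 1.56 and 2.53 in all 15 libraries. Without the 2 libraries farthest from the median, control 4 and mutant 4 of 3 months, r was 0.90 and no longer passed after adjustment (permutation, adjusted p = 0.125). Ang4 and Itln1 were the other pair to pass, at r = 0.88 (rho 0.86, permutation, adjusted p = 0.0122), and with mutants 1 and 4 of 3 months left out r was 0.76 (adjusted p = 0.125). The remaining 34 pairs did not pass on r, while Ang4 and Mmp7 passed on rank alone (rho 0.77, adjusted p = 0.0374). Ang4 had r = -0.30 with Reg3b and -0.24 with Reg3g, and neither passed. Reg3b and Reg3a, despite their shared family, had r = 0.40.

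**Figure D4:**
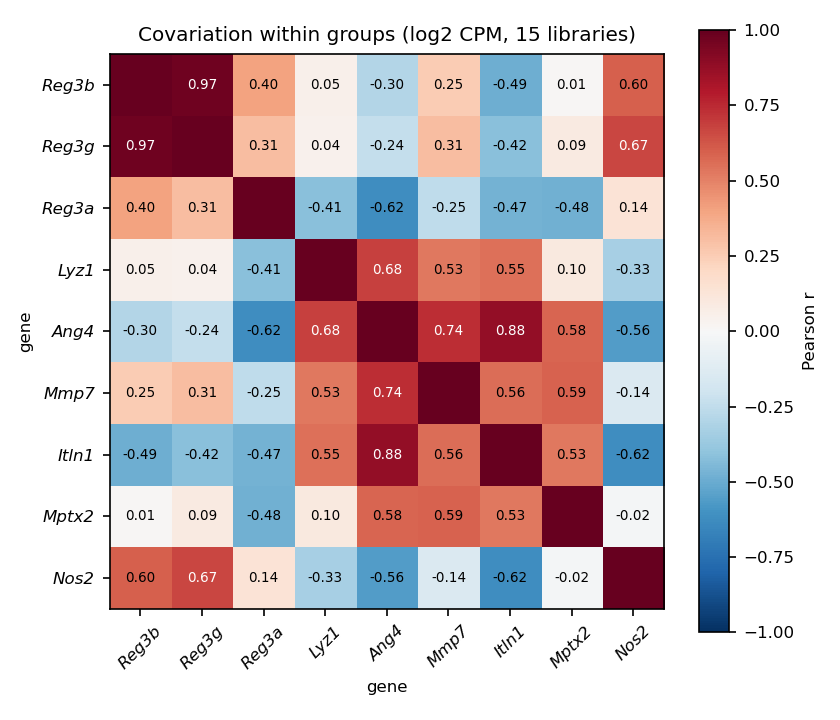
Pearson r between the log2 CPM of each pair of the 9 genes over 15 libraries, with the mean of each group removed (colour scale from -1 to 1; both axes list the genes). Reg3b with Reg3g (0.97) and Ang4 with Itln1 (0.88) are the 2 pairs that passed the permutation test after adjustment over 36 pairs.

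The genes most like Reg3g and Lyz1 were sought among 13145 genes by the same r over 15 libraries, as a description. For Reg3g these were Dmbt1 (0.92), a secreted scavenger receptor that binds bacteria, Rassf4 (0.92), Bgn (0.91), Cyyr1 (0.90) and the acute-phase gene Saa2 (0.90). For Lyz1 they were Cdkl2 (0.91), the alpha-defensin genes Defa24 (0.90), Defa37 (0.84) and Defa3 (0.83), and the glycosyltransferase B4galnt2 (0.87).

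The other Reg genes and secreted lectins of the gut held 1 gene that passed at 3 months, of 6 tested, beside 9.28% of all genes. Reg4, a lectin of secretory cells, was at 35.9, 25.9, 31.2 and 68.6 CPM in controls and 129, 84.7, 205 and 164 CPM in the libraries labelled mutant. Every library labelled mutant was above every control, a log2 rise of 1.86 ± 0.35 (SE, adjusted p = 0.0192), and the difference from 8 days passed as well (2.35, adjusted p = 0.0487). The 3-month call was lost without any one of controls 1, 2 and 3 (adjusted p 0.0577 to 0.0625) and with Rfx6f/f controls alone (1.49, adjusted p = 0.172). At 8 days 0 of 5 tested genes of this list passed.

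Of 13 other Paneth cell products tested, 0 passed at either time, with a median log2 fold change of -0.03 at 8 days and -0.19 at 3 months. The most counted, Defa24 and Defa30, stood at -0.35 (adjusted p = 0.387) and -0.22 (adjusted p = 0.400) at 3 months. Of 13 alpha-defensin genes tested at 3 months 12 had negative values and 1, Defa21, passed (lower), beside 4.32% of all genes called lower. Controls 2 and 4 had Defa21 at 0 and 0.59 CPM, like the libraries labelled mutant (0.03 to 0.49 CPM), so the call rests on controls 1 and 3. The summed alpha-defensins were at 4901, 3103, 5241 and 2489 CPM in controls 1 to 4 and at 1863 to 3314 CPM in the libraries labelled mutant, so that controls 2 and 4 lay inside the range of the other label. At 8 days 0 of 17 passed. Among 16 regulators of Paneth cell fate and Wnt or Nod2 signalling, 1 passed at 3 months, a share near the 9.28% of all genes. This was Sox9, a factor needed for Paneth cells. It was 0.55 ± 0.14 higher on the log2 scale (adjusted p = 0.0411), a call lost without any 1 of 7 of the 8 libraries (adjusted p 0.0633 to 0.108) and kept without mutant 1. At 8 days 0 of 16 passed.

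Upstream of Reg3, 1 of 16 tested genes of IL-22 signalling and bacterial sensing passed at 3 months, a share near the 9.28% of all genes. An unadjusted p under 0.05 was reached by 9 of 16, beside 29.4% of all genes, and 10 of 16 values were negative (median -0.25, beside 0.008 for all genes). Il17a, a cytokine of T cells and innate lymphocytes, had 38, 61, 50 and 15 counts in the controls and 1, 11, 0 and 0 counts in the libraries labelled mutant, or -3.84 ± 0.84 on the log2 scale (SE, adjusted p = 0.0286). These counts are low, and the call was lost when any one of controls 1 to 3 or mutants 1, 3 and 4 was left out (adjusted p 0.0503 to 0.0778). Il22 itself, Il23a and Il6 had too few counts to be tested. Of 13 other genes that IL-22 or bacteria are known to induce, 10 had negative values at 3 months (median -0.66, beside 0.008 for all genes) and 1 passed (lower), beside 4.32% of all genes called lower. Between the control genotypes at 3 months, Rfx6f/f over Rfx6f/+, the same list had 12 of 15 negative values and a median of -0.61, with 0 called, so its median differed between the 2 kinds of control about as much as between the labels. The 1 gene of this list that passed between the labels was Saa3, a serum amyloid A. Saa3 was at 7.20, 6.10, 6.74 and 4.20 CPM in controls and 2.23, 3.48, 2.90 and 1.04 CPM in the libraries labelled mutant (difference -1.30 ± 0.33 on the log2 scale, adjusted p = 0.0416). It was lost without any one of controls 1, 2 and 3 or mutants 1 and 3 (adjusted p 0.0697 to 0.103). At 8 days neither list had a gene that passed.

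The genes around Nos2 were the list with most calls at 3 months: 7 of 14 genes of nitric oxide metabolism and interferon-gamma signalling passed, each lower in the libraries labelled mutant, beside 4.32% of all genes called lower. The other 7 did not pass, and 6 of them had positive values, 3 with an unadjusted p under 0.05. Cxcl10, a chemokine induced by interferon, fell by 1.94 (adjusted p = 0.00878) and Irf1, a transcription factor of the same response, fell by 1.005 (adjusted p = 0.0134). Irf1 was at 369.8, 418, 413 and 422 CPM in controls and 176, 269, 146 and 209 CPM in the libraries labelled mutant, with no overlap. Ifng, the cytokine itself, had 18, 49, 29 and 31 counts in controls and 4, 3, 0 and 7 counts in the libraries labelled mutant, and fell by 3.24 (adjusted p = 0.0159). Mutant 2, the library with the highest Nos2 of its group, also had the highest Irf1, Cxcl9, Cxcl10 and Ido1 of its group. Cxcl10, Irf1 and Ifng kept their calls when any single library was left out and missed the threshold with Rfx6f/f controls alone (adjusted p 0.119 to 0.154), where 36 of 17552 genes were called in all, and without controls 1 and 3 (adjusted p 0.140 to 0.150). Sox9, Il17a and Saa3 also missed it with Rfx6f/f controls alone (adjusted p 0.220 to 0.276). At 8 days 0 of 13 tested genes of the list passed.

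**Figure D5:**
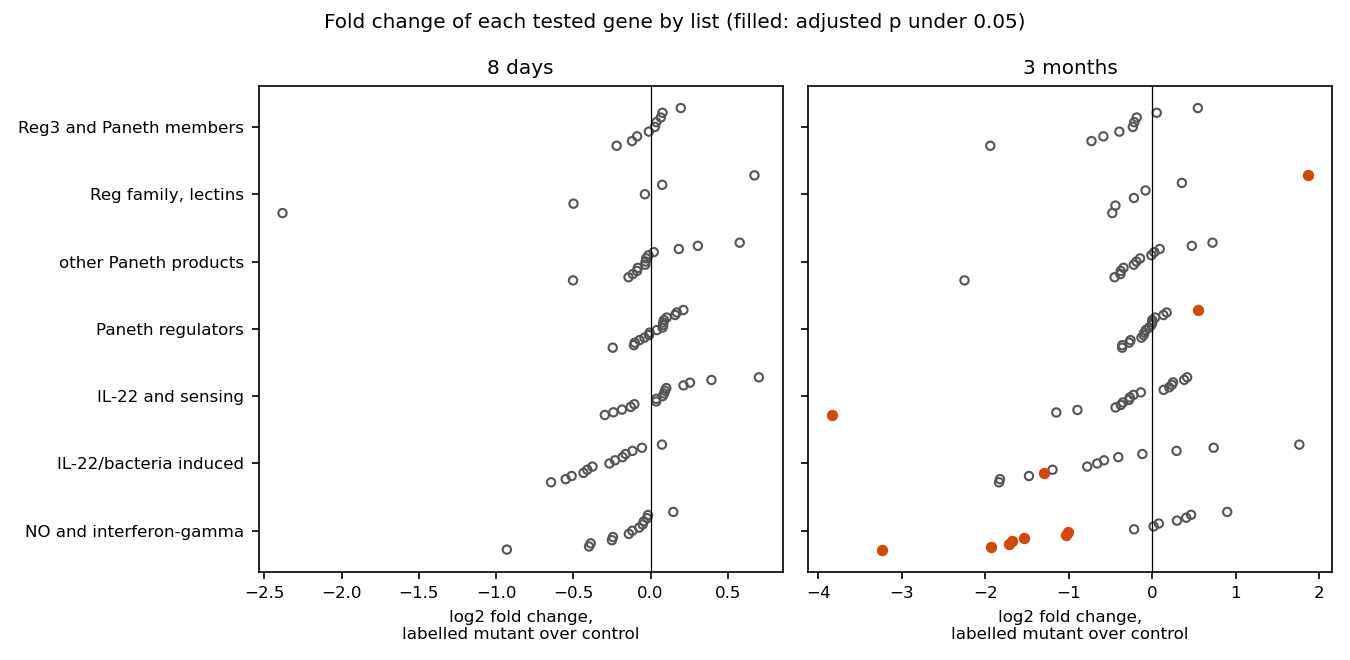
Log2 fold change of libraries labelled mutant over control (horizontal axis) for each tested gene of the 9 members and 6 related lists (vertical axis), at 8 days and 3 months; filled points passed the edgeR test at an adjusted p of 0.05. At 3 months 7 points of the nitric oxide and interferon-gamma list are filled, all below 0, and none of the 9 members is.

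Markers of several cell types differed at 3 months as well, and their counts stand beside 9.28% of all genes called, 4.32% called lower and 29.4% with an unadjusted p under 0.05 (8.8% at 8 days). The 6 T cell markers summed to 102 to 131 CPM in the 3-month controls and 29.5 to 79.6 CPM in the libraries labelled mutant, with mutant 2 highest, and 3 of 6 passed (lower), each lost without any one of controls 1, 2 and 3 (adjusted p 0.0515 to 0.105). The 6 macrophage markers summed to 190 to 242 CPM in controls and 228 to 311 CPM in the libraries labelled mutant, ranges that overlap. Of these markers 4 had positive and 2 negative values (median 0.10). Only 1 of 6 passed, not far from the share of all genes, Csf1r (higher, 0.60, adjusted p = 0.0212). The 6 B cell markers had values of opposite sign at the 2 times, with 0 of 6 called at either time or for the interaction. At 8 days 6 of 6 values were positive, each with an unadjusted p under 0.05 (median 2.61), and the sums were 15.1 to 46.9 CPM in controls and 18.6 to 259 CPM in the libraries labelled mutant. At 3 months 6 of 6 were negative, 2 with an unadjusted p under 0.05 (median -1.31), and the sums were 87.8 to 199.7 CPM in controls and 11.5 to 128.5 CPM in the libraries labelled mutant. The 6 interaction values were all negative (median -3.86). Of the 6 markers of crypt stem and cycling cells 1 passed at 3 months, not far from the share of all genes, the topoisomerase gene Top2a (lower, -0.34, adjusted p = 0.0377). Of the 6 neutrophil markers Ly6g and Elane were at or near 0 in every library, while Cxcr2 was at 2.26 to 5.50 CPM. The list summed to 4.55 to 6.13 CPM in the 3-month controls and 5.22 to 5.88 CPM in the libraries labelled mutant. At 3 months 1 of the 6 had enough counts to be tested, and it did not pass (0.19). The 7 enterocyte markers summed to 9669 to 12601 CPM in controls and 15767 to 23478 CPM in the libraries labelled mutant, with Sis higher (2.47, adjusted p = 0.000567) and the ileal gene Fabp6 lower (-1.44, adjusted p = 0.00873), and 4 of the 7 values were positive. The gap between these sums came from Sis, the brush border sucrase-isomaltase, at 1354 to 1963 CPM in controls and 8192 to 13174 CPM in the libraries labelled mutant. Without Sis the sums overlapped, at 8315 to 10645 and 6621 to 10303 CPM. The 3 jejunum markers (Gata4, Lct and Fabp1) had 3 of 3 positive values at 3 months, 2 with an unadjusted p under 0.05 and 0 called (median 1.22), and summed to 28.1 to 73.6 CPM in controls and 69.8 to 108 CPM in the libraries labelled mutant. The 5 smooth muscle markers had 5 of 5 positive values at both times, 2 with an unadjusted p under 0.05 and 0 called at each (medians 0.36 and 0.37), and at 3 months this count is close to the share of all genes. Of the 6 goblet cell markers 1 passed, not far from the 9.28% of all genes, Muc2 (0.95, adjusted p = 0.0144). At 3 months 4 of the 6 values were positive and 2 negative (median 0.17). The list summed to 12891 to 15494 CPM in controls and 17266 to 18539 CPM in the libraries labelled mutant. The part of Muc2 alone in this gap was not tested. Of Csf1r, Sis, Fabp6 and Muc2, Sis alone kept its call with Rfx6f/f controls alone (adjusted p = 0.0248). The part of these cells in the values of Nos2, Reg3b, Reg3g and the lists was not tested.

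Library totals were 26.1 to 54.5 in units of 1000000 counts, so that 3 counts stood at 0.0565 to 0.115 CPM (a floor for counting error only), and each of the 9 genes had at least 425 counts in every library. Any pair of libraries of 1 group differed by more than sampling noise. The labels do not say which RNA came from which of 2 extraction methods. Rfx6 counts were not lower under the mutant label (log2 fold change 0.19 at 8 days and 0.72 at 3 months, adjusted p = 0.867 and 0.0347), whereas Gcg, the glucagon gene of enteroendocrine cells, was lower by -4.15 and -9.47. Fabp6 and Slc10a2, ileal markers, were present in every library. At 8 days control 3 and mutant 4 held the colon gene Car1 at 165 and 444 CPM, and mutants 2 and 4 the jejunal gene Lct at 3.54 and 7.53 CPM, beside 290 to 658 CPM in the other 8-day libraries. Leaving out either pair left 0 of 9 genes called at 8 days.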

How the data were processed

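Libraries were made from total ileum RNA with a Ribo-zero kit, per the labels' protocols. The molecule label instead says polyA RNA. The deposited files hold unnormalized read counts for each Ensembl gene, in 1 table per time point. The submitters' processing notes name TopHat2 2.0.10, Bowtie 1.0.0, Bowtie2 2.1.0, HTSeq 0.6.1, bcl2fastq 2.17.1.14 and the genome build mm9, with no order or settings. The handling of strand and of reads that match several genes is not given in the sources used here and could move counts between paralogs.

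Symbols came from GENCODE M21, which paired 32897 of 37620 identifiers (87.4%). Identifiers without one carried 0.675% of the counts. Each time point was fitted alone on all genes with edgeR 4.0.16 (quasi-likelihood F test, two-sided, R 4.3.3) after filterByExpr with a minimum count of 10 and TMM scaling, and a gene passed at a Benjamini-Hochberg adjusted p under 0.05 over all genes tested. Errors of fold changes are SE. The interaction used 15 libraries in 4 groups, and the control genotypes 8 libraries in 3 groups. CPM use TMM scaling over 15 libraries, and CPM per kb divide by the longest coding transcript. Covariation used log2 CPM (prior count 2) with group means removed and 100000 permutations within groups. Alternatives were DESeq2 1.42.0, limma-voom (limma 3.58.1), RLE scaling, TMM without the 20 most counted genes, no filter, 10 counts in every sample, robust empirical Bayes, a fit of all 15 libraries, Rfx6f/f controls alone and each library left out. The 4 pairs of libraries left out for their Car1, Lct, pancreas or Defa21 levels, and the single libraries left out for the control genotypes, were chosen after seeing the data.

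In simulated counts, 200 genes were shifted by 2 on the log2 scale. The test found 97.5% of them at 8 days, on average over 3 draws of 17316 genes, and 5.02% of its calls were false. It found 98.0% at 3 months over 16910 genes, with 5.16% false, and 92.7% in the interaction over 17714 genes, with 4.31% false. Smaller shifts were not simulated. By edgeR with no library left out, Nos2 stood at -1.94 ± 0.69 (SE) at 3 months and did not pass. The other members lay between -0.73 and 0.54 there. The shares found therefore do not say how often the test would find changes as small as those of the members.

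The genes named are the 9 members, up to 4 genes of each list (those past the threshold with the smallest p, otherwise the 2 most counted), and the 5 genes most like Reg3g and Lyz1. Rfx6, Gcg, Defa21 and the cell type genes beside the results were named for checks. Outside this rule, Cxcl9 and Ido1 were named for their level in mutant 2, and Il22, Il23a and Il6 because they could not be tested. Mptx1, Lyz2 and AV064505 were named because reads may be shared with a member. Some items of the lists are not reported here. The members and lists were chosen with earlier results of these data known. Each library is taken as 1 animal. The labels do not say that libraries of a group were prepared separately, so p-values measure the spread between these samples.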

Additional observations from a re-analysis of the deposited data

Results flagged for a closer look

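In 1 of 27 checks, over the 9 genes in the 3 groups of 4 libraries, a library stood far from the others of its group, where chance gives about 1 in 20, or 1.35. Reg3b was at 7332 CPM in control 4 of 3 months, an Rfx6f/f animal, while the other 3 controls lay between 16959 and 17646 CPM, so that the gap to the nearest was 0.933 of the whole range of the group. The same library had the highest sum of exocrine pancreas genes (1176 CPM), and the lowest Reg3g (4231 CPM) of its group, a gene that varied together with Reg3b, and its part in these values was not tested. Without it the log2 fold change of Reg3b at 3 months was -0.81, beside -0.59 with it. This is the lower end of the values with single libraries left out, which ran from -0.81 to -0.29 for Reg3b and from -0.96 to -0.41 for Reg3g.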

How the results depend on the processing

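Of 630 fold changes of the 9 genes under an alternative, 584 kept their direction and their side of the threshold, 5 came to pass it and 41 changed sign, 29 of these with 1 library left out. The 9 genes stayed at 0 calls at 8 days and between control genotypes under each alternative run. At 3 months 1 gene was called with DESeq2, with all 15 libraries in 1 fit or without mutant 2 (Nos2), and 1 without the 2 libraries highest in pancreas genes (Reg3g). The calls ranged from 0 to 1 with single libraries left out, at 3 months and for the interaction, where 1 (Nos2) came without mutant 2 of 3 months. Covariation passed for 2 pairs, and for 0 with 13 libraries. The cause was not tested.

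No sign changed on a call. At 8 days, without the libraries with Car1, Reg3g stood at 0.22 and Mmp7 at 0.088, and without those low in Lct, Reg3g at 0.13, Reg3a at -0.094, Lyz1 at -0.0034, Mmp7 at 0.082 and Nos2 at 0.11. limma-voom gave Ang4 -0.033. At 3 months Reg3a was 0.20 with Rfx6f/f controls alone (interaction 0.13), Lyz1 was 0.13 and Defa24 0.078 without the 2 controls with Defa21, and Itln1 was -0.12 without the libraries highest in pancreas genes. With single libraries left out, the 8-day values ran from -0.049 to 0.25 for Reg3b, -0.29 to 0.17 for Reg3g, -0.12 to 0.32 for Reg3a, -0.038 to 0.12 for Lyz1, -0.26 to 0.17 for Ang4, -0.13 to 0.057 for Mmp7, -0.16 to 0.34 for Mptx2 and -0.56 to 0.19 for Nos2. At 3 months they ran from -0.62 to 0.0046 for Reg3a and -0.11 to 0.18 for Itln1, and the interaction of Itln1 from -0.049 to 0.25. Between control genotypes they ran from -1.21 to 0.052 for Reg3b, -1.23 to 0.16 for Reg3g, -0.23 to 0.50 for Lyz1, -0.34 to 0.25 for Ang4, -0.26 to 0.072 for Itln1 and -0.27 to 0.15 for Nos2.

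Counts over all genes moved far more. At 3 months 1586 genes were called, 2983 by DESeq2, 36 with Rfx6f/f controls alone, 24 without the 2 controls with Defa21 and 391 to 1521 with single libraries left out. Beside the member calls stood 2271 of 17959 genes in the fit of 15 libraries, 1438 of 17263 without mutant 2 and 1093 of 17199 without the 2 libraries highest in pancreas genes. At 8 days 16 were called, 178 by DESeq2, 27 without a filter, 25 in the fit of 15 libraries, 3 without the libraries with Car1 and 8 to 200 with single libraries left out. For the interaction 141 were called, 1017 by DESeq2, 41 by limma-voom, 223 without a filter, 248 with 10 counts in every sample, 5 with Rfx6f/f controls alone and 10 to 749 with single libraries left out. Between control genotypes 0 were called, and 48 by DESeq2. Leaving out an animal of a pair of controls leaves the other alone, which is then assumed to vary like the other groups. No paired analysis was possible because the labels give no replicate numbers.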
